A study of Mus musculus with 18 samples.

Results

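The LR mice of this series lost Rbpj under the control of Lrig1-CreERT2, a tamoxifen-inducible Cre recombinase. Lrig1 is a gene of stem cells in the upper hair follicle, next to the sebaceous gland. The comparison set 3 LR mice (LR 1, LR 2 and LR 3) against 3 control mice of the same batch (LR controls 2, 3 and 5). These 6 mice are part of 18 in the series, and all 16517 genes that passed a filter on low counts were tested. The labels do not state what alleles the controls carried or whether they held Cre. Per the labels, mutants and controls alike received tamoxifen, at 8 weeks of age, and dorsal skin was taken 10 weeks later. The epidermal side was separated with trypsin, so the RNA came from epidermis and hair follicles with whatever other cells they held, not from Lrig1-expressing cells alone. KR mice (K14-CreERT with Rbpj deletion, n = 4, with 2 controls) are compared with LR below. The same holds for KN1 mice (K14-CreERT with Notch1 deletion, n = 4, with 2 controls). The series' text also writes the KN1 driver as K14-CreERT1. All 18 mice entered the fit, so KR, KN1 and their controls also helped to set the estimate of spread.

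Notch receptors are cut when they meet a ligand on a neighbouring cell, and the freed part enters the nucleus. There it joins Rbpj, the DNA-binding protein of the pathway, and switches target genes on. In skin, Notch signalling is known for its part in keratinocyte differentiation, in hair follicle and sebaceous gland upkeep, and in restraining inflammation.

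The LR libraries held 8541208 to 11239648 counts, and those of their controls 8299785 to 11056572. Some libraries stood apart. Genes of the hair matrix, shaft and inner root sheath had a mean log2 CPM (counts scaled to library size) of 0.12, 3.96 and 0.24 in LR 1, 2 and 3, against 3.71, -0.15 and -0.45 in LR controls 2, 3 and 5. LR 2 and LR control 2 were thus high in genes of growing hair, although the skin is labelled as telogen, the resting phase. Mitochondrial transcripts made up 0.839%, 0.989% and 1.17% of counts in LR, and 0.895%, 0.892% and 2.26% in LR controls 2, 3 and 5. LR 3 was low in genes of suprabasal differentiation, which summed to 26008 CPM there. Their sum was 59335 and 51901 CPM in LR 1 and LR 2, and 44414 to 69711 CPM in controls. Xist and Y-linked genes marked 1 of the LR mice and 2 of their controls as male. The part of hair stage, mitochondrial share, the suprabasal level of LR 3 and sex in the results below was not tested beyond the fits named here.

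**Figure D1:**
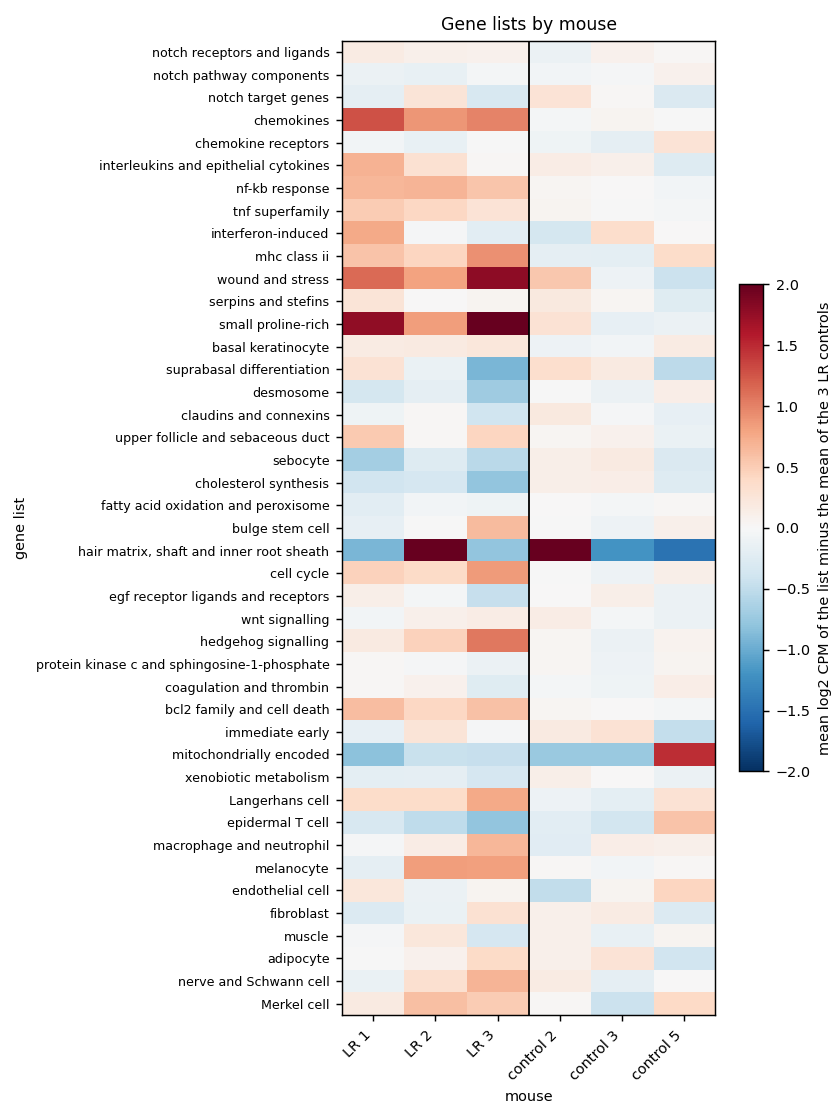
Mean log2 CPM of each gene list in each mouse, as the difference from the mean of the 3 LR controls; red is higher and blue is lower. LR 2 and control 2 are high in hair shaft genes, control 5 is high in mitochondrial transcripts, and the chemokine and NF-κB lists are higher in all 3 LR mice than in all 3 controls.

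Rbpj itself (chromosome 5, 53466152 to 53657362, plus strand, GRCm38/mm10, protein coding) had 29.9, 37.9 and 32.7 CPM in LR mice, against 42.7, 43.3 and 73.1 CPM in controls. Every LR mouse lay below every control. Its log2 fold change was -0.66 ± 0.17 (SE), and it missed the threshold (adjusted p = 0.0659, edgeR quasi-likelihood test with Benjamini-Hochberg adjustment, as for all adjusted p-values here). It passed with sex as a covariate (0.0491) or without LR control 2 (0.0398). The highest control value, 73.1 CPM, was that of LR control 5, the library also highest in mitochondrial transcripts. Counts over the whole gene do not resolve a deleted exon, and cells outside the Lrig1 lineage keep Rbpj. Lrig1 had 407, 295 and 619 CPM in LR mice, against 338, 373 and 366 CPM in controls (adjusted p = 0.578), and the groups overlapped. Krt14, a basal keratin, had 6991 ± 621 CPM in LR and 5028 ± 511 CPM in controls (adjusted p = 0.116), and Notch2 had 144 ± 24.7 CPM in LR and 207 ± 58.1 CPM in controls (adjusted p = 0.187).

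In LR skin 144 genes rose (0.872% of those tested) and 41 fell (0.248%) at an adjusted p under 0.05 (1.12% in all), 107 and 19 of them by at least 2-fold. All 185 called genes had groups that did not overlap, a pattern that 10.3% of all tested genes showed upwards and 9.29% downwards. The median log2 fold change was 1.41 over the genes that rose and -0.94 over those that fell. Over all tested genes the median was -0.004 and 49.5% were positive. These values and the shares that rose and fell are the background for every list below. The lists were chosen with earlier results of these data known. LR 3 was the highest LR mouse in 99 of the 144 rises and the lowest in 30 of the 41 falls. The calls depended on single mice: 48 of them, 45 rises and 3 falls, were made whichever of the 6 mice was left out. Without LR 3, 60 genes were called, without LR control 3, 70, and without LR 2, 246. With the 6 mice of the LR cohort fitted alone, so that the other mutants lent no estimate of the spread, 62 genes rose and 4 fell.

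Chemokine genes were among the largest rises. Ccl1 (chromosome 11, 82176657 to 82305690, minus strand) encodes a ligand of the receptor Ccr8 that attracts T cells. It had 10.3, 6.81 and 3.77 CPM in LR mice, against 0.236, 0.113 and 0.179 CPM in controls. The gene was near its floor in every control, and its log2 fold change was 5.22 ± 0.74 (adjusted p = 0.0012). Ccl2 (chromosome 11, 82035571 to 82037453, plus strand) encodes a monocyte attractant. It had 114, 52.9 and 82.2 CPM in LR mice, against 7.57, 6.67 and 4.11 CPM in controls, and every LR mouse was far above every control (3.77 ± 0.51 on the log2 scale, adjusted p = 0.00149). The third chemokine to rise was Cxcl16, a membrane-bound ligand of Cxcr6, with 159 ± 20 CPM (SD, n = 3) in LR and 82.4 ± 14.4 CPM in controls (log2 fold change 0.95 ± 0.16, adjusted p = 0.00418). All 3 were called whichever mouse was left out, but Cxcl16 was lost with the LR cohort fitted alone (adjusted p = 0.0712). Of 18 chemokines tested, 3 rose and 0 fell, 17 had positive log2 fold changes, and the median was 0.96, beside a median of -0.004 over all genes. Ccl22 had 1.84 (adjusted p = 0.0701). None of 14 chemokine receptors was called, and Ccr8, the receptor of Ccl1, averaged under 1 CPM in both groups.

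**Figure D2:**
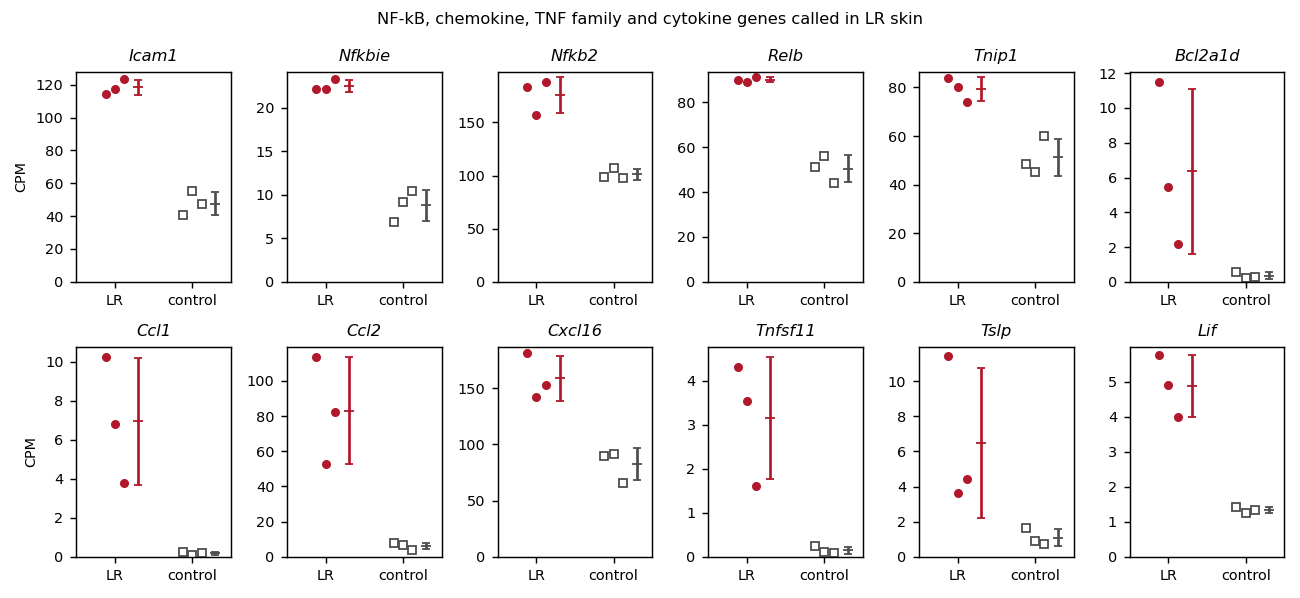
CPM in each mouse of 12 genes of the NF-κB, chemokine, TNF and cytokine lists that were called in LR skin, with the group mean and SD beside the points; each panel has its own axis from 0. LR mice are filled circles and controls open squares, and in each panel the groups do not overlap.

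Several genes of the NF-κB response rose. NF-κB is a family of transcription factors that inhibitor proteins hold in the cytoplasm until a signal frees them, and several of its own subunits and inhibitors are among its targets. Of 25 genes tested 6 rose and 0 fell, with 21 positive and a median log2 fold change of 0.34. Over all tested genes 0.872% rose and 49.5% were positive. Icam1 (chromosome 9, 21015985 to 21028817, plus strand), a surface protein that leukocytes bind, had 115, 117 and 124 CPM in LR mice, against 40.7, 55 and 47.3 CPM in controls. The LR mice were close together and more than 2-fold above each control, and the log2 fold change was 1.31 ± 0.20 (adjusted p = 0.00216). Nfkbie (chromosome 17, 45555703 to 45563169, plus strand), an inhibitor of NF-κB, had 22.1, 22.1 and 23.3 CPM in LR mice, against 6.86, 9.15 and 10.4 CPM in controls (1.35 ± 0.23, adjusted p = 0.00516).

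Of the subunits, Relb rose by 0.84 ± 0.16 on the log2 scale, to 90.1 ± 1.13 CPM in LR, against 50.5 ± 5.97 CPM in controls (adjusted p = 0.014). Nfkb2, the partner of Relb, rose by 0.80 ± 0.16, to 176 ± 16.7 CPM, against 101 ± 4.9 CPM (adjusted p = 0.0163). Tnip1, which restrains the pathway, rose by 0.63 ± 0.13 (adjusted p = 0.0163). Bcl2a1d, an anti-apoptotic Bcl2 family member, had 11.5, 5.43 and 2.15 CPM in LR mice, against 0.591, 0.226 and 0.268 CPM in controls (4.12 ± 0.67, adjusted p = 0.00391). Bcl2a1d has near-identical copies that can share reads, so its own level is uncertain. The other subunits had smaller values: Nfkb1 0.30, Rela 0.34 and Rel 0.06 on the log2 scale. Icam1, Nfkbie and Bcl2a1d were called without any one mouse. With the LR cohort fitted alone, 2 of 23 genes of the list rose, Icam1 and Nfkbie, and Bcl2a1d (adjusted p = 0.0555), Relb (0.0538), Nfkb2 (0.0539) and Tnip1 (0.14) lost their calls. Relb was lost without LR 3 (adjusted p = 0.0634) or LR control 5 (0.0586), and Tnip1 without LR 1 (0.0641), LR control 2 (0.0594) or LR control 3 (0.106). Nfkb2 was called in 1 of the 6 fits, that without LR 2, and had adjusted p = 0.0548 to 0.0915 without any of the other mice.

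The κB consensus, the sequence that NF-κB subunits bind, was looked for on both strands in promoters from 250 bases before to 50 after the start site (RefSeq, GRCm38.p6; 10231 of the tested genes matched by symbol). It was found in 16.3% of the genes that rose (14 of 86 with a promoter), 3.33% of those that fell (1 of 30) and 6.44% of all. The RBPJ core, GTGGGAA on either strand, was found in 10.5% (9 of 86), 16.7% (5 of 30) and 7.38%. The bases before the start of the called NF-κB genes that held the κB consensus are shown with the matches in capitals; adjoining or overlapping matches run together. A match describes the letters in this window and is not evidence of binding.
Nfkb2, chr19:46304587-46304736, plus strand: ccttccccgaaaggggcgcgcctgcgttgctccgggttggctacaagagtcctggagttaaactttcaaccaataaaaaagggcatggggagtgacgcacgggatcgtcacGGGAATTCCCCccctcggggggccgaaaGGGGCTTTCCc
Nfkbie, chr17:45555550-45555699, plus strand: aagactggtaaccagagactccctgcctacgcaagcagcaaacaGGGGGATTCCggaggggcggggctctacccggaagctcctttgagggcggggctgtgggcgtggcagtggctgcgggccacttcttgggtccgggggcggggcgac
Tnip1, chr11:54962941-54963090, minus strand: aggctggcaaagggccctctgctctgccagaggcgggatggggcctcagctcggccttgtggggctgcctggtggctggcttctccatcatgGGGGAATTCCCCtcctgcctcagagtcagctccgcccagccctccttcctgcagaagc
The promoters of Bcl2a1d, Ccl1, Icam1, Lif, Tnfsf11, Tnfrsf4 and Tnfrsf18 held no match from 250 bases before to 50 after the start site. Ccl2, Cxcl16, Relb and Tslp had no promoter matched by symbol and were not searched. Nfkb2 has further listed start sites that also held matches, and only the first is shown.

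Some genes of the TNF family and of the cytokines rose. Tnfsf11 (chromosome 14, 78277445 to 78308043, minus strand) encodes RANKL, a ligand best known from bone that is also made in skin. It had 4.31, 3.54 and 1.62 CPM in LR mice, against 0.236, 0.113 and 0.0894 CPM in controls (log2 fold change 4.37 ± 0.62, adjusted p = 0.0012). Its receptor gene Tnfrsf11a had -0.76 (adjusted p = 0.204). The receptors Tnfrsf4 and Tnfrsf18, found on activated and regulatory T cells, rose by 0.80 ± 0.17 and 0.78 ± 0.17 (adjusted p = 0.0239 each). Of 29 genes of the family 3 rose and 0 fell, with a median of 0.30. Tnfsf11 was called without any one mouse. Tnfrsf4 and Tnfrsf18 were lost without LR 1, LR 3, LR control 3 or LR control 5 (adjusted p = 0.0608 to 0.179), and with the LR cohort fitted alone (0.127 and 0.119).

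The epithelial cytokine Tslp, an alarm signal to dendritic and T cells, had 11.4, 3.62 and 4.42 CPM in LR mice, against 1.66, 0.904 and 0.715 CPM in controls (2.58 ± 0.42, adjusted p = 0.00411). The level was highest in LR 1, and the call was lost with the LR cohort fitted alone (adjusted p = 0.108). Lif, a cytokine of the interleukin 6 family, had 5.75, 4.91 and 3.99 CPM in LR mice, against 1.42, 1.24 and 1.34 CPM in controls (1.86 ± 0.36, adjusted p = 0.0145). Lif was lost without LR 1 (adjusted p = 0.0566), LR control 3 (0.0766) or LR control 5 (0.0509). Of 21 interleukins and epithelial cytokines these 2 rose and 0 fell, with a median of 0.49. Icosl, the ligand of the T cell co-stimulator Icos, rose by 2.54 ± 0.44 (adjusted p = 0.00715), but not without LR control 3 (0.0608). Among 35 interferon-induced genes only Ifitm3 was called (1.30 ± 0.19, adjusted p = 0.0012), and the median was 0.27.

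Markers of immune cells are set beside these rises. The 14 Langerhans cell genes were all positive with a median of 0.44, and none was called (1 rose without LR 2 and LR control 2). Their summed level was 1265 to 1943 CPM in LR and 856 to 1327 CPM in controls. The 7 MHC class II genes, which present antigen, had a median of 0.63 with none called. Of 24 genes of epidermal T cells none was called, and their median of -0.65 became -0.23 without LR control 5, where they were highest. Their summed level was 109 to 197 CPM in LR and 190 to 311 CPM in controls. Macrophage and neutrophil markers were low in both groups: 7 of 13 in the table passed the filter, and their sum was 12, 18.1 and 21.4 CPM in LR mice and 12.3, 19.3 and 17.4 CPM in controls. In bulk RNA, a change in cell number and a change in RNA per cell cannot be told apart. The part of immune cells in the rises was not tested.

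**Figure D3:**
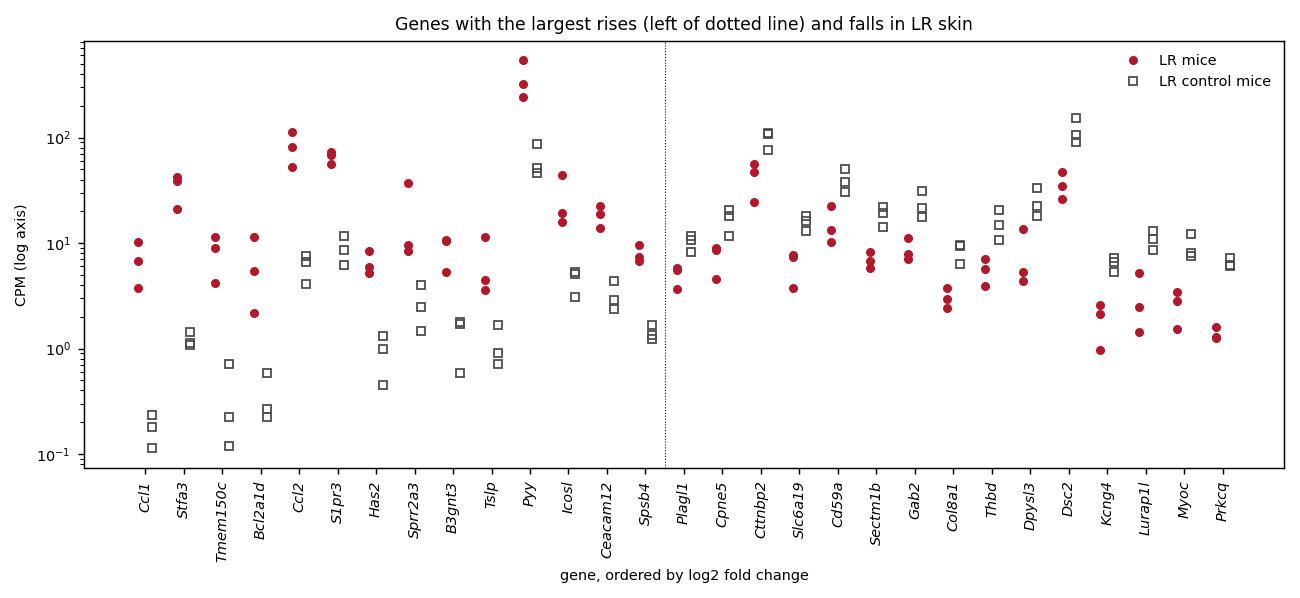
CPM on a log axis in each mouse for 14 of the 15 genes with the largest rises and the 15 with the largest falls among called genes at 5 CPM or more in the higher group. LR mice are filled circles, to the left of the open squares of the controls; no gene has overlapping groups, as the choice of genes requires.

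Several receptors and signalling genes changed by a large factor. S1pr3 (chromosome 13, 51408639 to 51422797, plus strand), a receptor for the lipid sphingosine-1-phosphate, had 73.1, 56.3 and 68.6 CPM in LR mice, against 8.63, 6.21 and 11.6 CPM in controls (2.89 ± 0.41, adjusted p = 0.00164). Prkcq (chromosome 2, 11172108 to 11301222, plus strand), protein kinase C theta, had 1.25, 1.29 and 1.62 CPM in LR mice, against 6.15, 6.1 and 7.24 CPM in controls (-2.23 ± 0.31, adjusted p = 0.0012). These 2 genes moved in opposite directions and were the only called members of a list of 22 protein kinase C and sphingosine-1-phosphate genes, whose median was -0.10. Both were called without any one mouse.

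Has2, which makes hyaluronan, had 8.34, 5.17 and 5.92 CPM in LR mice, against 1.3, 0.452 and 0.984 CPM in controls (2.81 ± 0.40, adjusted p = 0.0012), and an antisense gene, Has2os, overlaps it. Ceacam12 rose by 2.52 ± 0.28 (adjusted p = 0.000801), Spsb4, which selects proteins for ubiquitination, by 2.48 ± 0.33 (adjusted p = 0.00106), and Tmem150c by 4.40 ± 0.62 (adjusted p = 0.0012). Ceacam12 has close relatives and Tmem150c has an overlapping antisense gene, so their reads may be shared. Has2, Ceacam12, Spsb4 and Tmem150c were called without any one mouse.

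The remaining large rises among the named genes lost their calls without some single mice, although every LR mouse lay above every control. The gut hormone gene Pyy had 244, 323 and 542 CPM in LR mice, against 45.8, 51.3 and 87.7 CPM in controls (2.58 ± 0.46, adjusted p = 0.0117). It was lost without LR 3 (adjusted p = 0.0635), LR control 2 (0.054) or LR control 3 (0.0744). Stfa3, a stefin (cysteine protease inhibitor), had 39.1, 21 and 42.1 CPM, against 1.42, 1.13 and 1.07 CPM in controls (4.81 ± 0.91, adjusted p = 0.0195). It was lost without LR 3 or any one control (adjusted p = 0.0647 to 0.0982). The cornified envelope gene Sprr2a3 had 9.68, 8.45 and 37.5 CPM, against 2.48, 1.47 and 4.02 CPM in controls (2.76 ± 0.63, adjusted p = 0.0456). It was lost without LR 3 (0.254), LR control 2 (0.0953), LR control 3 (0.168) or LR control 5 (0.0876), and with the LR cohort fitted alone (0.126). Stfa3 and Sprr2a3 belong to families with near-identical copies. They were the called members of the wound and stress list, whose median over 20 genes was 1.20. B3gnt3, a glycosyltransferase, rose by 2.67 ± 0.55 (adjusted p = 0.0222) and was called only in the fit without LR 2 of the 6 that left out a mouse. Outside the rule for named genes, and chosen after its values were seen, Meox1, a homeobox gene, had 87 counts over the 3 LR mice and 0 over the controls. That is at least 26.4-fold higher, set against a floor of 3 counts over the control group, which covers counting error only.

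Genes of cell death were among the rises. Casp8, an initiator caspase of death receptors, had 51.6 ± 4.58 CPM in LR and 29.7 ± 1.26 CPM in controls (0.80 ± 0.14, adjusted p = 0.00713), and was lost without LR 3 (0.0567) or with the LR cohort fitted alone (0.0643). Gsdmc, a gasdermin with near-identical relatives, rose by 2.00 ± 0.40 (adjusted p = 0.0196), but not without LR 3 (0.139), LR control 2 (0.0666) or LR control 3 (0.108). With Bcl2a1d these were 3 rises of 28 genes tested, with 0 falls and a median of 0.38. With the LR cohort fitted alone, 0 of the 28 were called.

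Markers of the upper follicle, the region where Lrig1 is active, were examined as a list. Gata6, a transcription factor of the sebaceous duct, had 110, 67.3 and 137 CPM in LR mice, against 30.6, 42.7 and 44.6 CPM in controls (1.41 ± 0.21, adjusted p = 0.00159). It was called without any one mouse, but not with the LR cohort fitted alone (0.0737), and every LR mouse exceeded every control. Of 16 genes 2 rose and 0 fell, and the median was 0.35. In the list of 24 bulge stem cell genes, 17 were positive and 7 negative, with a median of 0.19. Against that direction 1 gene fell: Myoc, with 1.53, 3.45 and 2.8 CPM, against 12.2, 8.02 and 7.51 CPM in controls (-1.82 ± 0.43, adjusted p = 0.0456). Of the 6 fits without 1 mouse, Myoc was called only in that without LR 2 (0.0714 to 0.186 in the others). Wnt10a, a ligand of hair follicles, rose by 0.95 ± 0.19 (adjusted p = 0.0178). It was the only called member of 42 Wnt genes, and was lost without LR 1 (0.0566), LR 3 (0.101), LR control 3 (0.0744) or LR control 5 (0.0775).

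Among adhesion genes the desmosomal cadherin Dsc2 fell. It had 34.7, 47.1 and 26.4 CPM in LR mice, against 91.2, 106 and 152 CPM in controls (-1.69 ± 0.25 on the log2 scale, adjusted p = 0.00163). The groups did not overlap, and it was called without any one mouse. Of 19 desmosome genes it was the only one called, while 17 were negative, with a median of -0.38. Dsg1a had -1.05 (adjusted p = 0.112), Dsp -0.52 (0.17) and Perp -0.45 (0.176). Of 42 suprabasal genes none was called (1 rose with sex as a covariate), and the median of -0.32 became -0.07 without LR 3.

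Of the 15 largest falls, 3 were called without any one mouse: Prkcq, Dsc2 and Gab2. Gab2, an adaptor of receptor signalling, had 7, 11.2 and 7.86 CPM in LR mice, against 17.6, 21.6 and 31 CPM in controls (-1.43 ± 0.22, adjusted p = 0.00216), and it was lost with the LR cohort fitted alone (0.0745). Thbd, thrombomodulin, fell by 1.47 on the log2 scale (adjusted p = 0.0244), but not without LR 2, LR 3, LR control 3 or LR control 5 (adjusted p = 0.0563 to 0.18). Cd59a, an inhibitor of complement, fell by 1.35 (adjusted p = 0.0163), but not without LR 1, LR 3, LR control 3 or LR control 5 (0.0561 to 0.112). The amino acid transporter Slc6a19 fell by 1.32 (adjusted p = 0.0136), but not without LR 3, LR control 2 or LR control 3 (0.0514 to 0.0738). The other large falls, from -1.81 to -1.02, were in Lurap1l, Kcng4, Dpysl3, Col8a1, Sectm1b, Cttnbp2, Cpne5 and Plagl1, and each lost its call without at least 3 of the mice. With the LR cohort fitted alone, Prkcq, Dsc2 and Sectm1b kept their calls among the 15.

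Lipid genes of the sebaceous gland lay lower in LR with few calls. Of 36 sebocyte genes 32 were negative and the median was -0.52. Me1, which supplies NADPH for fatty acid synthesis, was the only one called, with 222, 267 and 147 CPM in LR mice, against 323, 353 and 404 CPM in controls (-0.76 ± 0.17, adjusted p = 0.0356). It was lost without LR 1 (0.0733), LR 3 (0.184), LR control 3 (0.101) or LR control 5 (0.109), and with the LR cohort fitted alone (0.198). Of 24 cholesterol synthesis genes 23 were negative with a median of -0.48, and none was called. Stard4, a carrier of cholesterol within cells, had -0.78 and lay at the threshold (adjusted p = 0.0511). It passed with RLE factors (0.0487), with a minimum mean of 1 CPM (0.0488), and without LR 2 (0.0477) or LR control 2 (0.0354). With female mice alone, 2 LR against LR control 5, the medians of the sebocyte and cholesterol lists were -0.14 and -0.22.

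Proliferation and hedgehog genes lay higher without passing. Of 45 cell cycle genes 43 were positive, with a median of 0.61 and none called. The median was 0.40 without LR 3. The hedgehog target gene Gli1 had 1.60 ± 0.45 on the log2 scale (adjusted p = 0.0965), and none of 14 hedgehog genes was called, although 1 rose with a minimum mean of 1 CPM and 1 without LR 1. It had 25.2, 28.7 and 76.9 CPM in LR mice, against 16.7, 16.9 and 9.66 CPM in controls, so LR 3 lay far above the rest.

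Few Notch pathway genes came near the threshold. None of 7 receptors and ligands, 23 pathway components (Rbpj among them) or 14 target genes was called, and the medians were 0.01, -0.05 and 0.04. Notch1 had 380, 329 and 397 CPM in LR mice, against 346, 381 and 412 CPM in controls. The target gene Hes1 had 36.2 ± 7.1 CPM in LR and 49.6 ± 8.9 CPM in controls (-0.45 ± 0.24, adjusted p = 0.372).

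**Figure D4:**
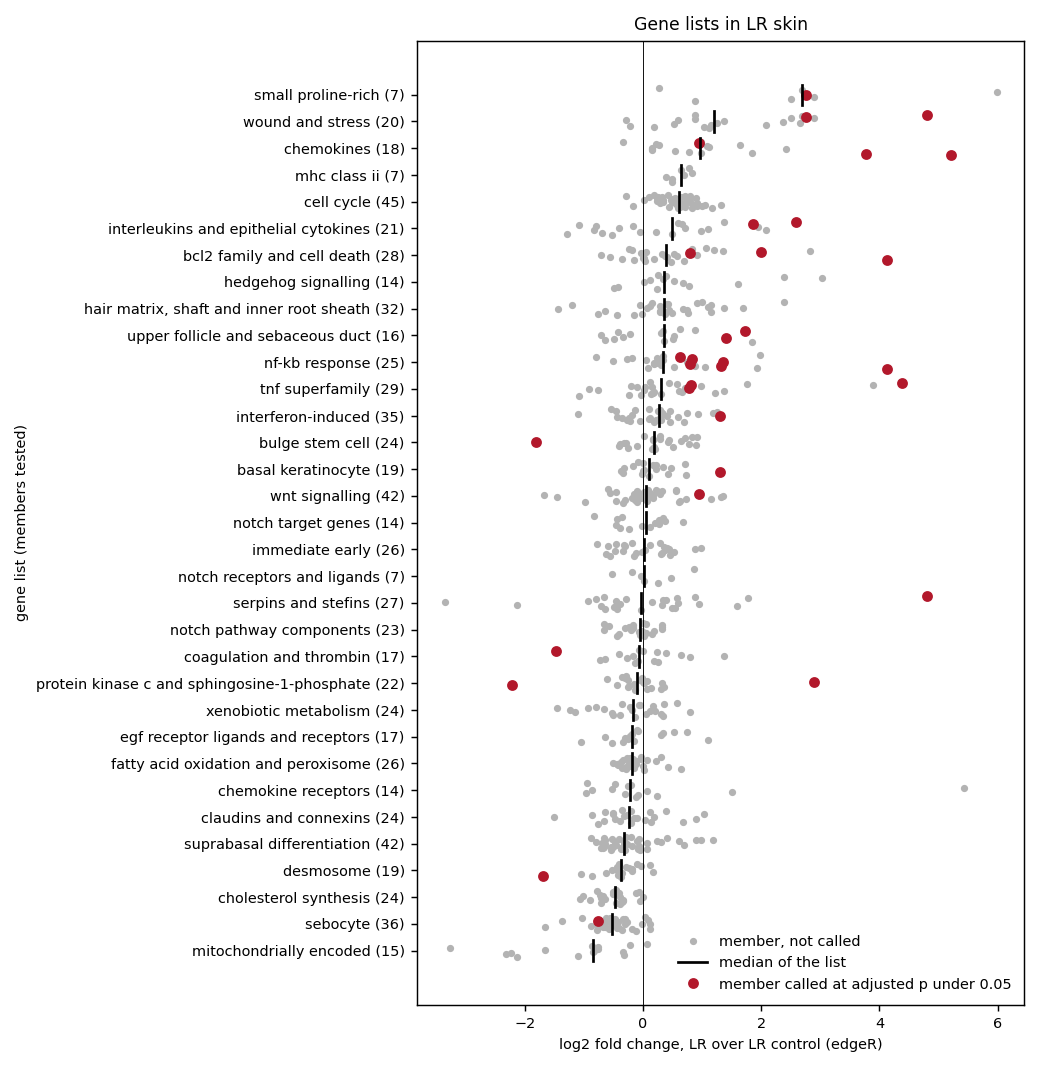
log2 fold changes (LR over LR control) of the members of 33 gene lists, ordered by median; red points are called members and black bars medians. The NF-κB list holds the most called members, 6, and the sebocyte, cholesterol and desmosome medians lie below 0.

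The LR genes were then set beside the other mutants, each against its own controls, so no control is shared. Of the 144 rises 37 also rose in KR, where Rbpj was deleted through K14-CreERT and 0.696% of genes rose. That is 25.7% of the LR rises and 32.2% of the KR rises. The log2 fold change in KR was positive for 141 of the 144, with a median of 0.87, beside 53.4% of all genes. Of the 41 falls 7 also fell in KR (17.1% of the LR and 4.70% of the KR falls; 0.902% of genes fell in KR). In KN1, 10 of the rises (6.94% of the LR rises and 7.04% of the KN1 rises) and 6 of the falls (14.6% of the LR falls and 3.28% of the KN1 falls) were shared. The background there was 0.860% up and 1.11% down, and the median of the LR rises was 0.47. In all 3 mutants 6 genes rose, among them Ceacam12 and Tslp, and 3 fell.

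**Figure D5:**
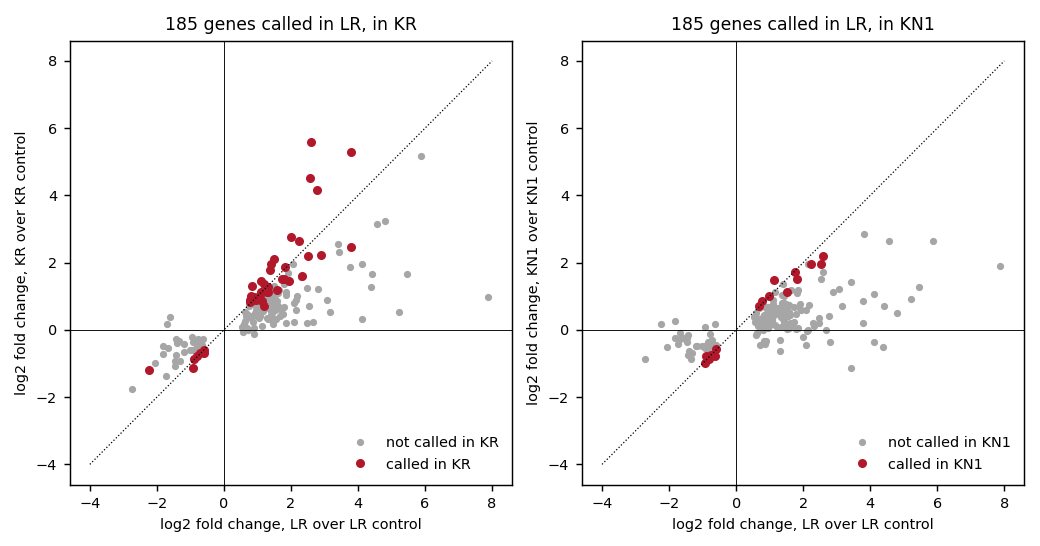
log2 fold changes of the 185 genes called in LR (horizontal) against those in KR (left panel) and KN1 (right panel); red points were also called there, and the dotted line marks equal effects. Most points lie on the same side of 0 in KR, and many LR rises have small values in KN1.

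Some LR changes had smaller values in KR. Ccl1 had 5.22 in LR and 0.52 in KR, Dsc2 -1.69 and 0.16, Tnfsf11 4.37 and 1.28, and Lif 1.86 and 0.21. Tslp had 2.58 in LR and 5.58 in KR, and Pyy 2.58 and 4.52. For none of these single genes did the difference pass across all genes. Ccl1 had a difference of 4.69 ± 1.06 (adjusted p = 0.756), Dsc2 -1.85 ± 0.36 (0.429) and Tslp -2.99 ± 0.72 (0.928). Against KN1, Tnfsf11 had a difference of 4.87 ± 0.81 (adjusted p = 0.0587) and Prkcq -2.39 ± 0.44 (0.0666). In each of the difference tests 0 genes were higher and 1 was lower in LR (0.00605% of genes), Gypc in both. Unadjusted p-values lay under 0.05 for 685 genes against KR and 1162 against KN1. A missed threshold in groups of 2 to 4 mice does not show that effects are alike.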

How the data were processed

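Per the labels' protocols, telogen dorsal skin was trypsinised overnight, the epidermis was scraped off, and poly(A) RNA was sequenced. The deposited values are raw counts per gene, 21011 genes by 18 mice. The submitters' processing notes name STAR, HTSeq, DESeq2 and mm10; versions, and whether counting used strand, are not given in the sources used here. Of the rows, 15418 carry a symbol of GENCODE M21 (GRCm38).

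Members and gene lists were chosen with earlier results of these data known. Counts were fitted with edgeR 4.0.16 (R 4.3.3, TMM factors, filterByExpr, robust quasi-likelihood F test, 2-sided) with 6 group means over 18 mice, and p-values were adjusted over 16517 genes at 0.05. CPM values use TMM-scaled libraries; mean log2 CPM used a prior count of 2. Standard errors come from the F statistic. Differences between mutants were contrasts in the same fit. The labels give separate mice, and p-values measure the spread between them. Replicate pairs differed beyond sampling noise (chi-square per degree of freedom at least 6.41). The fit was also run on simulated counts, drawn with a common mean and the fitted spread of each gene, and with set changes in LR. These counts hold no cohort or hair-stage differences, so that run cannot show how the fit fares with them.

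Named genes were Rbpj, Notch1, Notch2, Lrig1, Krt14; up to 15 largest rises and falls among called genes at 5 CPM or more with no overlap and an ordinary symbol; from each list, at most 4 members ranked by adjusted p; and at most 5 genes each way per difference test. Members cited for their role beside these, such as Ccr8, Tnfrsf11a, Nfkb1, Rela and Rel, were chosen after their values were seen. Some results that these rules select are not reported here. Alternatives were RLE factors, a minimum mean CPM of 1, an unfiltered table, DESeq2 1.42.0, the LR cohort alone, sex as a covariate, a replicate block and each mouse left out. Added after the data were seen were the omission of LR 2 with LR control 2, and female mice only.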

Additional observations from a re-analysis of the deposited data

Results flagged for a closer look

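Gypc, which encodes glycophorin C, was the gene whose LR effect differed from that of both other mutants by a direct test. It had 2 counts over the 3 LR mice and 18 over their controls, a log2 fold change of -3.08 ± 0.81 that did not pass (adjusted p = 0.0714, edgeR quasi-likelihood). It averaged 18 CPM in KR and 0.319 CPM in KR controls, and 16.6 CPM in KN1 and 0.465 CPM in KN1 controls. The LR effect minus the KR effect was -9.10 ± 0.93 (adjusted p = 0.000195), and the LR effect minus the KN1 effect was -8.03 ± 0.90 (adjusted p = 0.000774). LR and KR both lost Rbpj, so for that difference driver and batch cannot be told apart. Against KN1 the deleted gene differs as well, and driver, batch and gene cannot be told apart.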

How the results depend on the processing

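No named gene that was called changed direction in any alternative, but the groups of all 185 called genes do not overlap. Leaving out mice, or changing the factors, the filter or the method, was therefore all but bound to keep the direction. The calls themselves could be lost. Of the 185 called genes, 32 (30 rises, 2 falls) were called in all 13 alternatives, not counting the settings added after seeing the data. The LR cohort alone gave 66 calls (62 rose, 4 fell), and DESeq2 gave 551 (335, 216), 183 of them shared with edgeR, and called Rbpj (adjusted p = 0.0147), Stard4 (0.00686) and Gli1 (0.00687). Leaving out 1 mouse gave 60 to 246 calls, 55 to 189 rises and 5 to 57 falls. No paired analysis by animal applies: the shared numbers 2 and 3 name different mice, and their deviations correlated by 0.07 and -0.08. The replicate block set LR 2 against LR control 2 and LR 3 against LR control 3. LR 1 and LR control 5 thus did not inform its LR effect. This fit gave 137 calls (83 rose, 54 fell), 69 of them shared. Under it Tslp (1.66, adjusted p = 0.0627), Cxcl16 (0.0664) and Gab2 (0.0506) lost their calls.

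The difference tests moved as follows (higher and lower in LR). Against KR they gave 9 and 2 with the replicate block, 2 and 2 with DESeq2, and 0 to 7 higher without 1 mouse. Against KN1 they gave 1 and 2 with no filter, 6 and 5 with sex as a covariate, 10 and 2 with the replicate block, 38 and 32 with DESeq2, and 0 to 9 and 1 to 4 without 1 mouse.

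Both settings added after seeing the data are given. Without LR 2 and LR control 2, 183 genes were called, 114 shared, and 1 gene was higher in each difference test. Female mice alone, chosen after the sexes were seen, gave 803 calls (487 rose, 316 fell), 77 shared. All 185 called genes kept their direction there, but their groups do not overlap. A comparison of any part of these mice was therefore all but bound to keep it. That fit has 2 LR mice against LR control 5, which stands apart in mitochondrial and T cell genes, and takes its spread from the other groups. Its difference tests gave 4 lower against KR and 0 against KN1. The cause of these moves was not tested. At 3 mice a group, changes of genes at a few counts per library rest on few reads.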
